A study of Mus musculus with 6 samples.

Results

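Interferon-stimulated genes and genes of the complement system were followed in kidney proximal tubules dissected from mice without Clcn5 and from wild type mice. The list held 34 genes, 25 interferon-stimulated and 9 of complement. A member was measured where a probe set of the array is annotated with that gene alone, and where several exist, the probe set with the highest mean log2 signal over the 6 arrays was taken. By this rule 30 members were found among the 18193 genes of the array, 24 interferon-stimulated and 6 of complement. Isg15 and C4b have only probe sets annotated with more than 1 gene, and C3 and Cfd were not analysed here.

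The knockout group lacks a working Clcn5 gene, whose product ClC-5 exchanges chloride for protons in the endosomes of proximal tubule cells. There were 3 arrays of knockout tubule RNA and 3 of wild type tubule RNA, and strain, sex, age and the knockout allele are not given in the sources used here. Tubule pieces of 2 mm, 80 to 100 from each kidney, were cut by hand in cold salt solution, and the RNA of several mice was combined for each array. The labels give 3 to 4 mice per pool and the records stored with the arrays give 7, and the records name the arrays biological replicates, so that p-values measure the spread between pools. Values are Affymetrix signals on a linear scale, brought to a trimmed mean of 150 on every array. The median signal was 40.9 to 45.3 on 5 arrays and 48.8 on knockout array 3, whose solutions also came from another lot in the array records. Clcn5 was lower in knockout on every array by each of its 4 probe sets, with log2 differences from −2.87 to −1.50. A tissue sample cannot tell fewer cells of a type from less RNA per cell.

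Type I interferons bind a receptor whose kinases activate Stat2, which together with Irf9 is part of a factor that binds the interferon-stimulated response element, or ISRE, in promoters. The genes it switches on sense viral RNA, block its translation, trim peptides for MHC class I and feed back on the pathway. Complement is a cascade of blood and tissue proteins that tags surfaces with C3 and C4 fragments. C2 and factor B supply the proteases of its classical and alternative convertases, and the kidney tubule is a known local source of several of its components.

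The response element itself can be read in the promoters of the members, and 4 are shown. Ifit1 and Ifit3 had the lowest log2 changes of the tested members, Rsad2 was the other interferon-stimulated member with an unadjusted p under 0.05, and B2m had the log2 change nearest 0. Each is the 180 bases before the start of the gene in RefSeq on build GRCm38.p6, 5′ to 3′ on the strand of the gene. Capitals mark matches to the ISRE core, which is GAAA, any 2 bases and GAAA again, searched on both strands.
Ifit1, chr19:34640709-34640888, plus strand: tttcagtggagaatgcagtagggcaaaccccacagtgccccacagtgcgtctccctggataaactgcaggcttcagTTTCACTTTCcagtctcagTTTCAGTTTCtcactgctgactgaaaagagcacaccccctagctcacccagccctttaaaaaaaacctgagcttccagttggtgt
Ifit3, chr19:34583349-34583528, plus strand: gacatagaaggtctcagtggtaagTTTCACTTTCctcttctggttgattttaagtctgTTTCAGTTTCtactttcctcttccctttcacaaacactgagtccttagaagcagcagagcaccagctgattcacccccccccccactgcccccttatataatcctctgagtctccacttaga
Rsad2, chr12:26456453-26456632, minus strand: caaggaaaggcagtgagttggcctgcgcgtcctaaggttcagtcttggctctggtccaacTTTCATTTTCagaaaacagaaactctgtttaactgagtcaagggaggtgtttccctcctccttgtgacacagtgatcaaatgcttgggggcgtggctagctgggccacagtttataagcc
B2m, chr2:122147507-122147686, plus strand: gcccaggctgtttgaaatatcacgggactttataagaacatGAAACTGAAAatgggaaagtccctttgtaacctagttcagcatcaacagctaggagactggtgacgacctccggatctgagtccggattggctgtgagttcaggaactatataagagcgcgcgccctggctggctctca
In Ifit1 the matches begin 104 and 85 bases before the start, and in Ifit3 they begin 156 and 122 bases before it. The single matches of Rsad2 and B2m begin 120 and 139 bases before the start.

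RefSeq windows of 250 bases before to 50 after the start were at hand for 19 of the 24 interferon-stimulated members and 2 of the 6 complement members. Of these, 10 interferon-stimulated members and 0 complement members held the ISRE core, as did 3.99% of the 27025 genes with a window. The longer form, the core followed by CT, contains the core and was present in 6 interferon-stimulated members, Ifit1, Ifit3, Oas1a, Bst2, Gbp2 and Ddx58, and in 0.303% of all genes with a window. A match describes these letters only and was not tested as a binding site.

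No interferon-stimulated member passed the test in either direction, and most had slightly lower signals in knockout than in wild type. Of the 24 members found, 21 had a mean signal above the filter of 41.9, and by limma none of these 21 passed an adjusted p of 0.05, against 6.48% of the 11620 genes tested, 3.24% higher and 3.24% lower. At an unadjusted p under 0.05 there were 2, Ifit3 and Rsad2, both lower in knockout, to be read against 19.4% of all genes, 9.08% lower and 10.3% higher. Log2 changes ran from −0.81 for Ifit3 to 0.21 for Psmb9, and 15 of the 21 were below 0, against 48.3% of all tested genes. The median log2 change was −0.10, beside 0.01 over all tested genes. The 95% interval of the change lay within 1.5-fold in either direction for 12 of the 21 members, as it did for 72.6% of all genes. For the other 9 the interval reached past 1.5-fold in at least 1 direction.

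**Figure D1:**
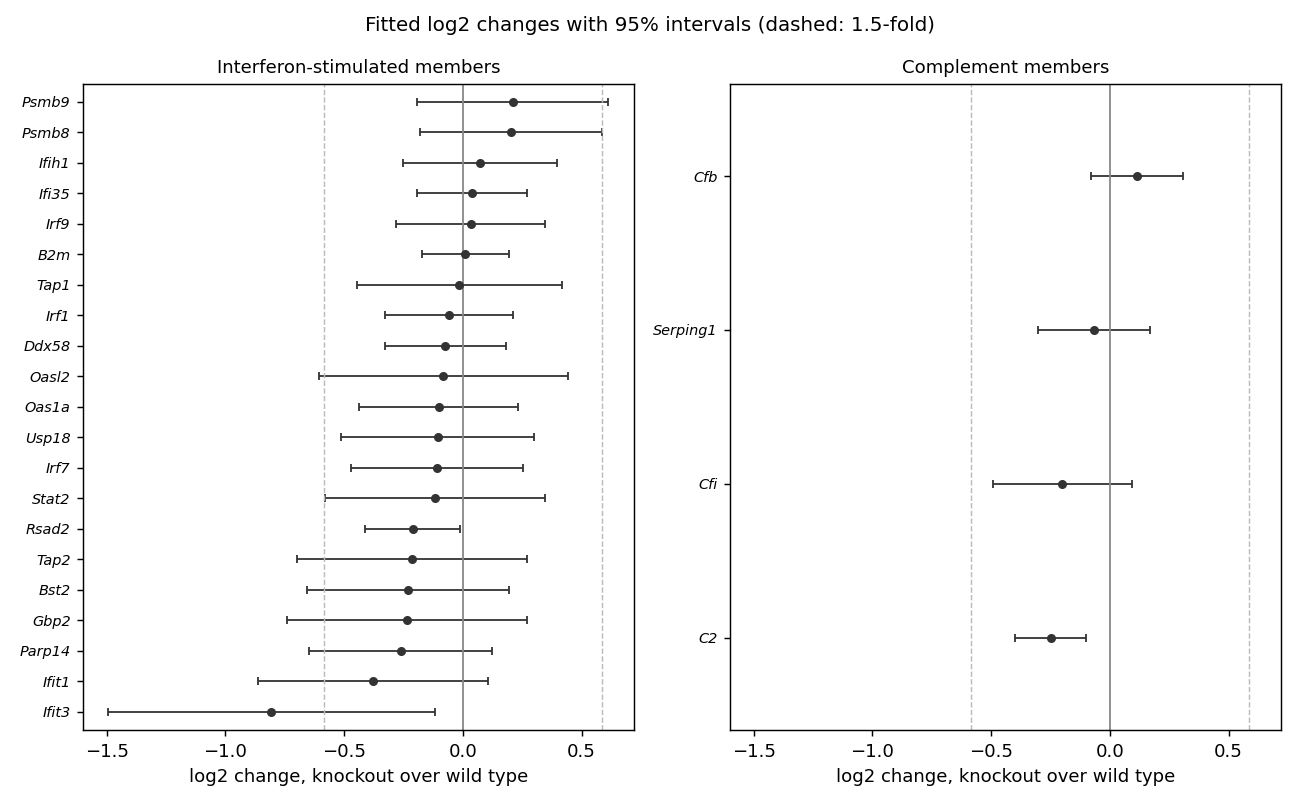
Log2 change of each tested member, knockout over wild type, on the horizontal axis, with interferon-stimulated members on the left and complement members on the right. Points are limma estimates from 3 knockout and 3 wild type arrays, bars are 95% intervals and dashed lines mark 1.5-fold; all intervals but those of Ifit3, Rsad2 and C2 cross 0.

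Ifit3 and Ifit1, of the Ifit family of antiviral proteins, had the lowest log2 changes of the tested members. Ifit3 had signals of 70.0, 66.7 and 29.2 on the knockout arrays, against 103, 92.7 and 76.0 on the wild type arrays. All 3 knockout values lay under all 3 wild type values, and knockout array 3 was far under the other knockout arrays. The fitted signal was 1.75-fold lower in knockout, a log2 change of −0.81 with an SE of 0.31 and a 95% interval of −1.49 to −0.12, and did not pass (limma adjusted p = 0.178). Without knockout array 3 the log2 change was −0.40 (adjusted p = 0.277). Among arrays washed on fluidics station 1, which were knockout 1 and 2 and wild type 1 and 3, it was −0.38, and the single pair of station 2 differed by −1.66.

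Ifit1 had signals of 39.8, 51.5 and 39.97 in knockout and 52.3, 64.8 and 53.0 in wild type. The groups did not overlap but came within 1 signal unit of each other, and the log2 change of −0.38 did not pass (SE 0.22, limma adjusted p = 0.394). Ifit2, next to Ifit3 in RefSeq's gene order, was below the filter, with signals of 15.1 to 33.5 in knockout and 24.3 to 39.6 in wild type. Ifit3 has a near-identical neighbouring copy in the mouse, so that its signal may hold both.

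Parp14, a mono-ADP-ribosyltransferase induced by interferon, was the third member whose groups did not overlap. Its signals were 72.7, 56.7 and 78.0 in knockout and 85.3, 79.8 and 81.2 in wild type. The log2 change was −0.26 (SE 0.17, limma adjusted p = 0.467). Its second probe set, below the filter, ran the other way, with 14.7 to 38.5 in knockout and 6.11 to 17.3 in wild type. In all, 3 of 21 members had groups that did not overlap, all lower in knockout, against 25.2% of all tested genes in either direction, 11.6% lower and 13.6% higher.

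Rsad2, which encodes viperin, an enzyme that makes a chain-ending nucleotide against viral polymerases, has 3 probe sets. The brightest read 397, 335 and 318 in knockout and 409, 404 and 396 in wild type, so that only knockout array 1 reached the lowest wild type value. The log2 change was −0.21 (SE 0.09, 95% interval −0.41 to −0.01, limma adjusted p = 0.226). The other probe sets gave log2 differences of −0.21 and −0.25. Without knockout array 1 the change was −0.31 and passed (adjusted p = 0.0473), and over all other alternatives the adjusted p was above 0.05, up to 0.56.

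**Figure D2:**
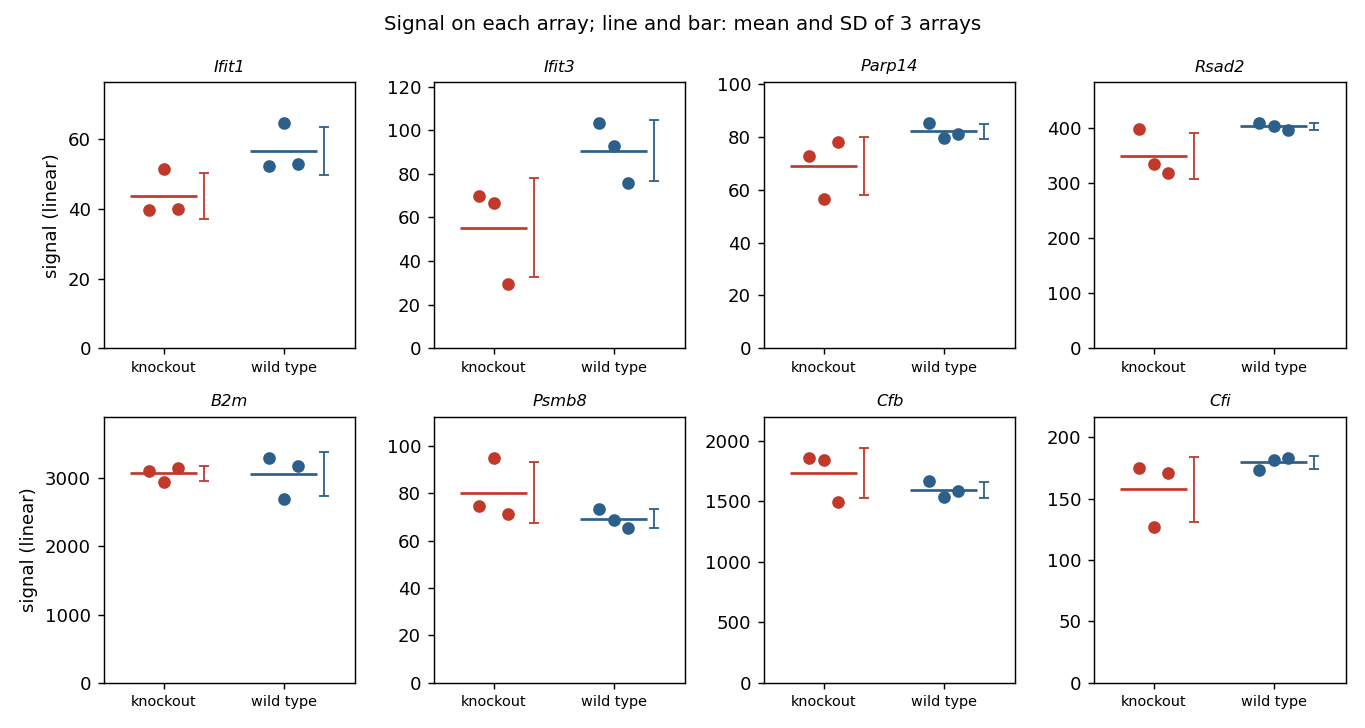
Linear signal of 8 members on each array, knockout left in each panel and wild type right, with points for arrays, a line for the mean and a bar for the SD (n = 3). Ifit1, Ifit3 and Parp14 have every knockout point under every wild type point, while B2m, Psmb8, Cfb and Cfi overlap.

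The factors that carry the interferon signal to the nucleus differed by less than the spread between pools. Stat2, a subunit of the factor that binds the ISRE, averaged 52.7 ± 9.23 in knockout and 56.8 ± 5.13 in wild type (SD, n = 3 each). Irf9, the DNA-binding subunit of the complex, averaged 103 ± 13.4 in knockout and 99.9 ± 3.13 in wild type. Irf1, a factor of the interferon gamma response, read 238 to 298 in knockout and 230.2 to 297 in wild type. Irf7, which amplifies type I interferon production, read 68.2 to 85.2 in knockout and 74.5 to 82.7 in wild type. The log2 changes of these 4 lay between −0.12 and 0.03, with limma adjusted p of 0.787 to 0.931.

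The sensors of viral RNA overlapped between the groups, with log2 changes near 0. Ddx58, which encodes RIG-I, had signals of 298, 280.3 and 232 in knockout and 257, 318 and 276 in wild type (log2 change −0.07, 95% interval −0.33 to 0.18). Ifih1, which encodes MDA5, had 93.1 to 121 in knockout and 92.8 to 102 in wild type (log2 change 0.07, interval −0.25 to 0.40). The 2 other probe sets of Ddx58 were below the filter.

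The other antiviral effectors and feedback genes had groups that overlapped by the probe set that represents them. Oas1a, a synthetase of the messenger that activates RNase L, averaged 109 ± 15.0 in knockout and 117 ± 13.5 in wild type (SD, n = 3 each). Near-identical Oas1 copies exist in the mouse, so that the signal of Oas1a is uncertain. Its relative Oasl2 had a log2 change of −0.08. Gbp2, a guanylate-binding GTPase, and Bst2, which encodes tetherin, had log2 changes of −0.24 and −0.23, with SEs of 0.23 and 0.19. Bst2 read 72.9, 73.2 and 87.7 in knockout, between the 70.3 of wild type array 3 and the 98.4 and 110 of the other wild type arrays. Usp18, the protease that strips Isg15 from proteins and damps the receptor, was at −0.10 (95% interval −0.51 to 0.30). Ifi35 was at 0.04 by its brightest probe set, at 0.09 by another and at −0.61 by the third, whose signals were 85.6, 40.1 and 76.1 in knockout and 105, 91.0 and 97.0 in wild type. The probe sets of Ifi35 therefore disagree, and their average gave a log2 change of −0.16 (limma adjusted p = 0.558).

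Mx1 and Mx2, GTPases that restrict influenza and other viruses, were far below the filter on all arrays. Mx1 read 2.57 to 12.8 in knockout and 4.12 to 8.67 in wild type, and Mx2 read 4.95 to 6.71 in knockout and 4.30 to 5.48 in wild type. Detection calls were not used here, so such signals cannot be told from background, and no change was measurable for them.

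The members that load MHC class I with peptides had log2 changes on both sides of 0, and none passed. Psmb8 and Psmb9, subunits of the immunoproteasome, had the highest log2 changes of the interferon-stimulated members, 0.20 and 0.21 (SE 0.17 and 0.18, limma adjusted p = 0.596 and 0.598). Psmb8 read 74.5, 94.99 and 71.0 in knockout and 73.4, 68.7 and 65.5 in wild type, so that knockout array 3 fell among the wild type values. Tap1 and Tap2 pair to form the peptide transporter, and Tap1 was at −0.02 (SE 0.19). Tap2 read 104, 69.2 and 57.7 in knockout and 82.8, 97.6 and 79.8 in wild type, with a knockout array above and the other knockout arrays below all wild type values. Its log2 change of −0.21 (SE 0.22) was 0.059 within station 1, −0.03 without knockout array 3 and −0.45 without knockout array 1. In RefSeq's gene order Psmb9, Tap1, Psmb8 and Tap2 follow each other with no other protein-coding gene between them, and the promoter windows of Tap1 and Psmb9 share 275 bases. B2m, the light chain of MHC class I, had signals of 3111, 2943 and 3151 in knockout and 3300.3, 2691 and 3174 in wild type. Its log2 change was 0.01 with an interval of −0.17 to 0.19, and its other probe set gave −0.01.

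A Tap1 probe set other than the one that represents the gene was higher on every knockout array than on any wild type array. It read 40.5, 24.8 and 27.6 in knockout and 5.38, 8.55 and 3.87 in wild type, below the filter, and was singled out after its values were seen. The representing probe set of Tap1 read 61.2 to 89.3 in knockout and 65.4 to 88.2 in wild type, and the other 2 dim ones gave log2 differences of −0.24 and 0.02.

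The members with a promoter window were also set apart by whether it held an ISRE core. The median log2 change was −0.16 over the 10 tested members with a match, 8 of them below 0, and 0.01 over the 8 tested members without one, 4 of them below 0. Over all tested genes 48.3% were below 0. Parp14, Tap2 and Usp18, at −0.26, −0.21 and −0.10, had no window and are in neither group. Ifit2 had no match and is left out because it was below the filter. The windows of Tap1 and Psmb9, both without a match, share 275 bases and are not separate promoters. This is a description, with no test. Per array, the mean deviation of the 21 interferon-stimulated members from their own average was 0.0030, −0.10 and −0.08 on the log2 scale in knockout and 0.07, 0.07 and 0.03 in wild type. Each of these is an average over genes of 1 pool. Over all tested genes the same mean lay between −0.03 and 0.03 on every array, but all arrays were scaled to the same trimmed mean. An average over all genes does not measure how far an average over 21 genes scatters, so no conclusion is drawn from it.

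Among complement members, C2 had the smallest p and was lower in knockout. Of the 6 found, 4 were above the filter, C2, Cfb, Cfi and Serping1, and by limma none passed an adjusted p of 0.05, against the same background of 6.48%. At an unadjusted p under 0.05 there was 1, C2, against 19.4% of all genes, or 9.08% for lower alone. The log2 changes ran from −0.25 to 0.11 with a median of −0.13, and all 4 intervals lay within 1.5-fold, as did those of 72.6% of all genes.

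C2, the protease precursor of the classical and lectin pathway convertase, has 3 probe sets, all lower in knockout. The brightest read 568, 579 and 537 in knockout and 639, 658 and 706 in wild type. The groups did not overlap, and the signal was 1.19-fold lower in knockout. Its log2 change was −0.25, with an SE of 0.07 and a 95% interval of −0.40 to −0.10, and it missed the threshold (limma adjusted p = 0.0568). The second probe set of C2 read 270.5, 247 and 259.9 in knockout and 343, 335 and 405 in wild type. These groups did not overlap either, and in a fit over all kept probe sets with 1 gene symbol it was 1.39-fold lower, a log2 change of −0.47 with an SE of 0.09 (limma adjusted p = 0.0156). The third read 157, 154 and 188 in knockout and 186, 209 and 240.4 in wild type, with knockout array 3 just above the lowest wild type value (log2 change −0.35). Averaged over its probe sets, C2 was at −0.36 and passed (limma adjusted p = 0.0274), and it also passed after quantile normalization (0.0414) and under a stricter filter (0.0417). Over all alternatives its adjusted p ran from 0.0274 to 0.214, with log2 changes of −0.36 to −0.21. The log2 change was −0.23 within station 1 and −0.29 for the single pair of station 2.

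**Figure D3:**
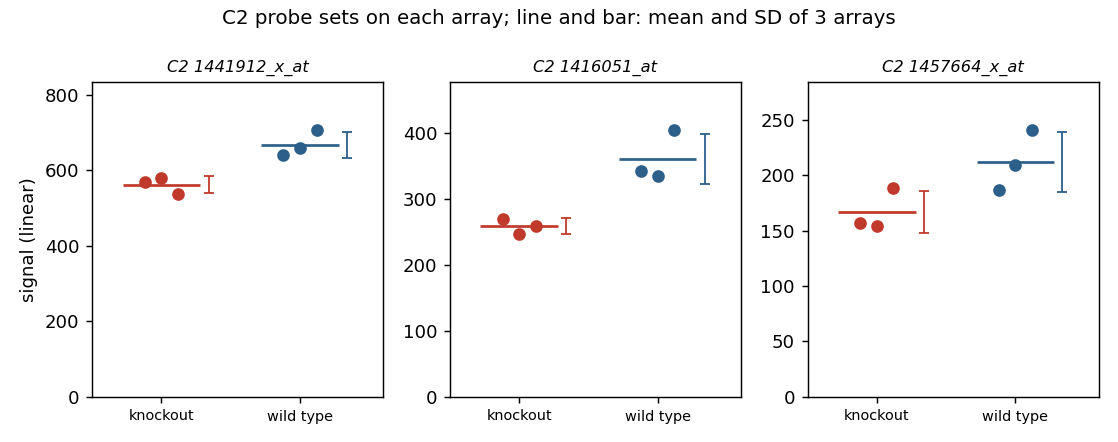
Linear signal of the 3 C2 probe sets on each array, knockout left and wild type right, with points for arrays, a line for the mean and a bar for the SD (n = 3). Knockout lies under wild type without overlap in the left and middle panels, and 1 knockout point reaches the wild type range in the right panel.

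Cfb, the gene of factor B and the nearest neighbour of C2 in RefSeq's gene order, did not share that direction. Its signals were 1863, 1847 and 1493 in knockout and 1669.6, 1536 and 1583 in wild type. Knockout arrays 1 and 2 were above all wild type arrays and knockout array 3 was below them, and the log2 change was 0.11 (SE 0.09, limma adjusted p = 0.551). Without knockout array 3 the log2 change of Cfb was 0.22, with an adjusted p of 0.102.

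The regulators among the members overlapped between the groups. Cfi, the protease that cuts C3b and C4b, read 175, 127 and 171 in knockout and 173, 182 and 183 in wild type. Knockout array 2 was the low one, and the log2 change of −0.20 (SE 0.13, limma adjusted p = 0.461) was −0.05 without that array. Serping1, the inhibitor of C1r and C1s, averaged 139.6 ± 5.25 in knockout and 146 ± 7.05 in wild type (SD, n = 3 each), a log2 change of −0.07 with an interval of −0.30 to 0.17. C1s1, a C1 protease with a near-identical second copy in the mouse, was below the filter, with 27.8 to 43.5 in knockout and 29.8 to 39.6 in wild type. Cd55, which speeds the decay of convertases, was also below it, with 25.4 to 47.1 in knockout and 32.5 to 62.9 in wild type.

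In the rest of the interferon pathway 4 single genes passed, Il10rb, Ifi27 and Lgals3bp lower and Socs3 higher in knockout, and the counts are to be read against the 6.48% of all tested genes that passed. None of the 7 interferon genes on the array reached the filter, and Ifnb1 read 25.3, 25.4 and 55.4 in knockout and 29.2, 30.8 and 31.2 in wild type. Of 9 receptor and JAK-STAT genes tested, 1 fell and 0 rose by limma. This was Il10rb, a receptor chain shared by interferon lambda and interleukin 10, at 365, 399.9 and 384 in knockout and 493, 482 and 507 in wild type (log2 change −0.37, SE 0.07, adjusted p = 0.00824). Every knockout value was under every wild type value, and within station 1 the log2 change was −0.39 (limma adjusted p = 0.0554). Of 11 sensors and adaptors none passed, the one with the smallest p being Mavs, the adaptor of RIG-I, at −0.21 (limma adjusted p = 0.196).

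Of 8 feedback regulators, 1 rose and 0 fell. Socs3, which blocks cytokine receptor signalling and is also induced by interleukin 6, read 156, 154 and 119.7 in knockout and 68.5, 80.7 and 89.4 in wild type. It was 1.80-fold higher in knockout, with a log2 change of 0.85 and an SE of 0.16 (limma adjusted p = 0.00841). When arrays were left out another probe set often represented Socs3, and its log2 change ran from 0.64 (adjusted p = 0.0557, without knockout array 2) to 1.54 (without wild type array 3).

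Of 45 other interferon-stimulated genes tested, 2 fell and 0 rose, to be read beside the 6.48% of all tested genes, with a median log2 change of −0.03. Groups did not overlap for 14 of the 45, 7 higher and 7 lower in knockout, beside 25.2% of all tested genes. Ifi27, a mitochondrial and nuclear envelope protein, read 292, 323 and 246 in knockout and 427, 471 and 515 in wild type (log2 change −0.72, SE 0.11, limma adjusted p = 0.00227). A second probe set represented Ifi27 without knockout array 2 or without wild type array 2 or 3, and the log2 change was then −0.43, −0.49 and −0.42, with adjusted p of 0.0582, 0.0355 and 0.0731. Within station 1 it was −0.41 (adjusted p = 0.0728). Lgals3bp, a secreted galectin-binding glycoprotein, read 229.99, 205 and 228 in knockout and 333, 339.6 and 337 in wild type (log2 change −0.61, SE 0.08, adjusted p = 0.00108). Of 11 genes of MHC class I processing none passed, with H2-K1, a class I heavy chain, at 0.27 (limma adjusted p = 0.0967). Their median log2 change was 0.02, and 3 of the 11 were below 0, against 48.3% of all tested genes. Groups did not overlap for 4 of them, H2-K1, Pdia3, Psmb10 and Tapbp, all higher in knockout, against 13.6% of all tested genes. Psmb10, another immunoproteasome subunit, was at 0.36 (SE 0.14, limma adjusted p = 0.183).

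In the rest of the complement system, 2 regulators rose and 1 terminal gene fell, counts to be read beside the 6.48% of all tested genes that passed. Clu, which encodes clusterin, an inhibitor of the membrane attack complex and a chaperone, read 2770.2, 2903 and 2791 in knockout and 1921, 1824 and 2037 in wild type. It was 1.47-fold higher in knockout, with a log2 change of 0.55 and an SE of 0.06 (limma adjusted p = 0.000418), and the groups did not overlap. Cpn1, the carboxypeptidase that trims anaphylatoxins, averaged 674 ± 14.4 in knockout and 501 ± 28.7 in wild type (SD, n = 3 each), a log2 change of 0.43 (limma adjusted p = 0.00279). With its probe sets averaged Cpn1 was at 0.02 (adjusted p = 0.925). Besides these 2 of 7 regulators, C8g, a chain of the membrane attack complex, fell among 3 terminal genes tested, with 188, 179.9 and 180.4 in knockout and 231, 227 and 233 in wild type (log2 change −0.34, adjusted p = 0.0435). The call of C8g ended without each of the 6 arrays in turn, with adjusted p of 0.0618 to 0.153.

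Genes of complement initiation and complement receptors did not pass. Of 8 initiation genes the smallest p was that of C1qa, with 184, 203 and 175 in knockout and 149, 151 and 146 in wild type (log2 change 0.33, limma adjusted p = 0.0919). Of 4 receptors it was that of C3ar1, at 0.54 (adjusted p = 0.198).

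**Figure D4:**
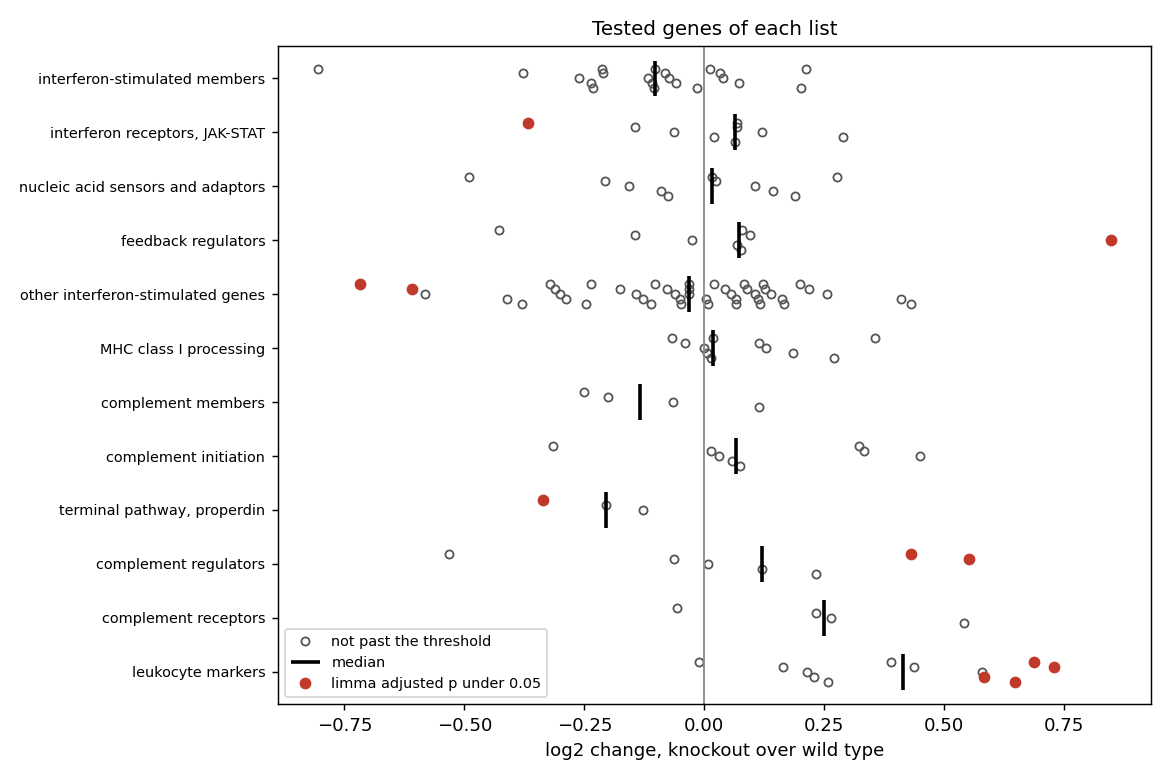
Log2 change, knockout over wild type, of each tested gene of the interferon and complement lists and of leukocyte markers. Filled points passed limma's adjusted p of 0.05, open points did not, and black bars are medians; the medians are −0.10 for interferon-stimulated members, −0.13 for complement members and 0.41 for leukocyte markers.

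Markers of other cells moved between the groups on the same arrays, and their part in the members' values was not tested. Each count of markers is to be read beside the 6.48% of all tested genes that passed, 3.24% higher and 3.24% lower. Of 12 leukocyte markers tested, 4 rose, Cd74, Csf1r, H2-Aa and Laptm5. In all 11 of the 12 had a log2 change above 0, and Fcer1g was at −0.01. The summed signal over the 12 was 4647 to 4962 in knockout and 3235 to 3292 in wild type. H2-Aa, Cd74 and Csf1r weigh most in that sum, with means of 1496, 1095 and 873 in knockout and 928, 662 and 583 in wild type. Ptprc, the common leukocyte antigen, read 92.2, 141 and 128 in knockout and 84.7, 83.6 and 105 in wild type. None of 10 endothelial markers passed, with sums of 2610.4 to 2828 in knockout and 2621 to 2736 in wild type. Of 3 tested hepatocyte markers, which are also plasma protein genes, 2 fell, Ttr and Fga, and Ahsg and Fgb were at signals of 1.10 to 5.95 on all arrays. The joining chain of plasma cell antibodies, Jchain, fell, with 222, 279.6 and 233 in knockout and 497, 453 and 403 in wild type. Of 6 podocyte markers 2 rose, with sums of 1748 to 2072 in knockout and 1501 to 1599.7 in wild type. Of 4 injured tubule markers tested 1 rose, Havcr1, also called Kim-1. It read 109, 104 and 117 in knockout and 52.2, 50.9 and 41.6 in wild type. Krt8 of the same list had a log2 change of −0.07 and did not pass. The 4 summed to 1392 to 1617 in knockout and 1310 to 1555 in wild type, so that the sums overlapped. The labelled tissue was checked on markers of the first proximal tubule segments, whose 10 genes were all above the filter and summed to 33346 to 35519 in knockout and 33746 to 38054 in wild type. Of these 10, 2 fell, the amino acid transporter genes Slc6a19 and Slc7a7, with log2 changes of −0.51 and −0.47 (limma adjusted p = 0.000589 and 0.00109). Of 6 markers of the last proximal tubule segment, S3, 1 rose, Slc7a13, with a log2 change of 0.37 (limma adjusted p = 0.00463). In all 5 of the 6 were above 0, and Atp11a was at −0.01. The 6 summed to 11357 to 12161 in knockout and 9911 to 10496 in wild type. Markers of segments after the proximal tubule were present too and went both ways. In the thick ascending limb list 2 of 6 rose, and its Umod read 4868 to 5402 in knockout and 3647 to 4079 in wild type. In the list of the distal convoluted and connecting tubule 4 of 5 rose, Calb1 among them, while Slc12a3 was at −0.12 and did not pass. Of 5 intercalated cell markers 3 rose. Of 5 principal cell markers of the collecting duct 2 fell, Aqp2 and Aqp3, with log2 changes of −0.49 and −0.53 (limma adjusted p = 0.0485 and 0.00179). Only 1 of the 5 was above 0, at 0.28, and it did not pass, though its groups did not overlap. Scnn1b of the same list was at −0.03.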

How the data were processed

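The deposited values are linear signal intensities of Affymetrix mouse arrays. Per the submitters' processing notes, the authors used MAS5 and GCOS 1.4. RNA was amplified from an oligo dT primer, per the labels, so probes read mostly 3′ ends. The table's trimmed mean (2% at each end) is 150 on all 6 arrays. Of 45037 probe sets that are not controls, 34945 carry 1 gene symbol, 932 several and 9160 none, by a platform annotation that can be old. Of the 34945, 34741 had a gene ID in the RefSeq table, all under the same symbol. Promoter sequences are RefSeq's on GRCm38.p6. The files name no build.

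Signals were turned to log2. Probe sets with a mean log2 signal at or above the median were kept, which is a signal of 41.9. The brightest kept probe set represented a gene. Knockout was compared with wild type over 11620 genes with lmFit and eBayes with an intensity trend (limma 3.58.1, R 4.3.3), two-sided, with Benjamini-Hochberg adjustment at 0.05. All adjusted p-values are limma's. Fold changes come from the fit, and the median SE of a log2 change was 0.12. The number of arrays limits the precision. Steps were tested on simulated data.

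Named genes are all members and other genes of both pathways past the threshold (up to 4 a direction and list, otherwise the smallest p). Of the leading markers of the cell types only some are named. Other genes and probe sets named were chosen after their values were seen. Members and lists were chosen with earlier results of these data known. Alternatives changed the transform, normalization, filter, probe set choice, variance model, array weights, station, replicate number and threshold, and left out each array. Figures were drawn with matplotlib 3.10.9, and tables were handled in Python 3.11.15 (numpy 2.4.6, pandas 2.3.3).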

Additional observations from a re-analysis of the deposited data

How the results depend on the processing

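The count of interferon-stimulated members past the threshold was 0 under every alternative except without knockout array 1, where it was 1, Rsad2, so that leaving out arrays gave 0 to 1. For complement members it was 0 except for C2, which made it 1 after quantile normalization, under the stricter filter (signal 100) and with averaged probe sets. Over all genes the 753 calls became 487 without the intensity trend, 453 within station 1 and 424 at an adjusted p of 0.01, and 512 to 733 when 1 array was left out. Calls in the pathway lists, 7 in all, were 4 within station 1 and 4 to 6 when 1 array was left out. Calls among cell type markers, 24 in all, stayed between 18 and 28.

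Some members changed sign, none of them past the threshold; all had log2 changes near 0 except Tap2, at −0.21. Within station 1 the log2 change was −0.091 for Irf9, −0.087 for Ifih1, 0.061 for Oas1a, 0.059 for Tap2, −0.097 for B2m and 0.12 for Ddx58. With array weights Irf9 was at −0.0012 and B2m at −0.017, after quantile normalization Tap1 was at 0.0013 and B2m at −0.0022, and with averaged probe sets Ifi35 was at −0.16. Leaving out 1 array gave −0.18 to 0.0068 for Irf1, −0.071 to 0.089 for Irf9, −0.072 to 0.097 for Ifi35, −0.044 to 0.15 for Ifih1, −0.23 to 0.024 for Oasl2, −0.20 to 0.018 for Oas1a, −0.13 to 0.14 for Tap1, −0.078 to 0.070 for B2m and −0.15 to 0.033 for Ddx58. The cause was not tested.

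Replicate numbers recur in both groups, but arrays with the same number did not deviate together: correlations across genes were 0.02, 0.03 and −0.03 for numbers 1 to 3. With the replicate block the calls over all genes were 765, and 0 for either set of members. Within station 2, 1 array a group, no test was possible. The difference of that pair lay within 1 SD between arrays of a group from the main log2 change for 11 tested members. For 14 it lay further off. Signals near the filter have wide intervals.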
